A study of Mus musculus with 16 samples.

Results

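Chromatin contacts measured by 5C (chromosome conformation capture carbon copy) in neural progenitor cells (NPCs) were compared with those in mouse embryonic stem (ES) cells kept in 2i medium. The members were all forward-reverse primer pairs with both primers in the same one of 7 targeted loci. Of the 16 libraries in the series, 4 entered the comparison: 2 NPC and 2 ES 2i libraries. They gave 91509 primer pairs with at least 1 count in a fitted library, of which 273 had none in these 4. In 5C, crosslinked DNA is cut (here with HindIII) and religated. A forward and a reverse primer that sit on joined fragments are then ligated and counted, so a count reports how often 2 fragments were joined.

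The ES cells were V6.5, a male line of 129SvJae x C57BL/6 background, grown with LIF, CHIR99021 (a GSK3 inhibitor) and PD0325901 (a MEK inhibitor). They were expanded on inactivated mouse embryonic fibroblast feeders and then moved to gelatin to remove the feeders. The NPCs came from whole brains of P1 mice of the same mixed background that carried Sox2-eGFP, were passaged as neurospheres and were plated on laminin 1 day before fixation. Cell type, origin of the cells and culture medium therefore changed together and cannot be told apart. The labels do not say whether replicates were separate cultures, so p-values measure the spread between libraries, which may be technical. No expression data were analysed, so the cell labels were not checked against marker genes. Counts come from bulk cells, where a contact made in fewer cells and a contact made less often per cell cannot be told apart.

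Contacts fall steeply with genomic distance, because neighbouring stretches of one chromatin fibre collide often. On top of that decline, loops join distant sites and domains confine contacts between boundaries. CTCF, a zinc-finger protein that binds DNA and halts the cohesin ring, sits at many loop bases and domain boundaries. Of the targeted genes, Oct4, Nanog, Sox2 and Klf4 encode transcription factors of the pluripotent state. Sox2 is also used in neural progenitors, Nestin encodes an intermediate filament of those cells, and Olig1 and Olig2 encode basic helix-loop-helix factors of neural and oligodendrocyte precursors. The seventh locus is a gene desert that serves as a control.

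The libraries held 11784821 and 14201950 counts in ES 2i and 14887963 and 14698138 in NPC. Within-locus forward-reverse pairs made up 91.7% and 83.6% of the ES 2i counts and 84.4% and 89.1% of the NPC counts. The 7 loci spanned from 192 kb (the gene desert, chromosome 5) to 2096 kb (Oct4, chromosome 17). A single Oct4 primer pair took 3.60% and 3.04% of the ES 2i libraries and 2.97% and 2.30% of the NPC libraries. Pairs of primers on neighbouring fragments, numbered 1 apart in the primer design, were a larger difference. These 1146 pairs held 32.6% and 29.5% of the counts used in ES 2i, and 45.5% and 43.1% in NPC. Their share was higher in NPC at every locus, from 31.04% to 53.8% on average at Nanog and from 42.1% to 50.3% at Sox2. They touch every result on short distances below.

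The loci did not keep their shares of the counts used. The gene desert took 2.27% and 2.04% in ES 2i and 3.23% and 3.51% in NPC, a ratio of 1.57. Olig1-Olig2 was higher at a ratio of 1.24 and Sox2 at 1.23, whereas Nanog was lower at 0.725 and Oct4 at 0.813. At these 5 loci, and at Nestin with a ratio of 0.939, the libraries of the groups did not overlap. At Klf4 (1.06) they did. No test was run on shares of whole loci, which sum to 100% and so cannot move independently. All comparisons below were made relative to the total or to the distance trend of the locus itself.

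Counts moved towards the shortest distances in NPC. Each locus was cut into 16-kb windows, and counts were summed by the distance between windows. Of 50 combinations of locus and distance, 34 passed the edgeR quasi-likelihood test at adjusted p below 0.05, which is 68%. Of these, 6 were higher in NPC (12%) and 28 were lower (56%). Bands of a locus are shares of 1 total, so a rise in some lowers the rest and the 50 are not independent. With the library total in place of the locus total, 11 were higher and 22 lower. The libraries of the groups did not overlap in 86% of the 50. Contacts inside 1 window were higher in all 7 loci and called in 5. Contacts 256 to 496 kb apart were lower in all 6 loci long enough to hold them and called in all 6.

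Nanog showed the widest shift. Contacts inside 1 window made up 30.8% and 29.1% of the Nanog counts in ES 2i and 52.8% and 50.5% in NPC (log2 change 0.79 ± 0.10 SE, n = 2 libraries a group, edgeR adjusted p = 1.17e-08). Contacts 64 to 112 kb apart held 14.5% and 14.8% in ES 2i and 7.22% and 7.84% in NPC (log2 change -0.96 ± 0.12, edgeR adjusted p = 6.39e-09). Every NPC library thus lay far from every ES 2i library in both bands. The share 512 to 1008 kb apart was 0.722% and 0.825% in ES 2i and 0.747% and 0.787% in NPC, and these libraries overlapped.

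Klf4 lost most at 256 to 496 kb, where 7.01% and 8.25% in ES 2i compared with 3.98% and 4.50% in NPC (log2 change -0.85 ± 0.12, edgeR adjusted p = 6.92e-08). Oct4 at the same distance held 10.3% and 10.9% in ES 2i and 6.69% and 6.78% in NPC (-0.66 ± 0.10, edgeR adjusted p = 2.27e-07). Its share at 64 to 112 kb, which contains the single most counted primer pair, did not pass (24.6% and 24.4% against 22.7% and 21.3%). At Olig1-Olig2 the fall grew with distance: the log2 change was -0.41 at 128 to 240 kb, -0.51 at 256 to 496 kb, -0.66 at 512 to 1008 kb and -0.84 beyond. The first of these lost its call without ES 2i replicate 2 (-0.33). Sox2 had 4 called falls, from -0.27 to -0.41, and each lost its call without ES 2i replicate 2 or NPC replicate 1. Without ES 2i replicate 2 those at 256 to 496 kb and at 512 to 1008 kb were -0.16 each. Without neighbouring fragments, of these 4 only the fall at 64 to 112 kb was called (-0.19). At Nestin the falls at 128 to 240 kb (-0.55) and at 256 to 496 kb (-0.51) kept their calls in all 14 alternatives. The called falls at 32 to 48 kb (-0.29), 64 to 112 kb (-0.36), 512 to 1008 kb (-0.45) and 1024 kb and more (-0.57) each lost theirs without at least 1 library, ES 2i replicate 2 in every case. Without neighbouring fragments none of these 4 was called, and that at 32 to 48 kb was 0.010. The gene desert had called falls at 32 to 48 kb (-0.53) and at 128 to 240 kb (-0.74). Each lost its call without at least 1 library. Without neighbouring fragments the former was -0.071 and not called, and the latter was -0.28 and called. With pairs inside 1 window left out as well, the latter was -0.19 and not called. The gene desert also fell at 64 to 112 kb, from 5.73% and 6.76% in ES 2i to 3.42% and 4.20% in NPC (-0.71 ± 0.17, edgeR adjusted p = 0.000326). That call was lost without ES 2i replicate 2 or NPC replicate 1 (highest edgeR adjusted p = 0.0583), and without neighbouring fragments (-0.26, edgeR adjusted p = 0.0756).

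**Figure D1:**
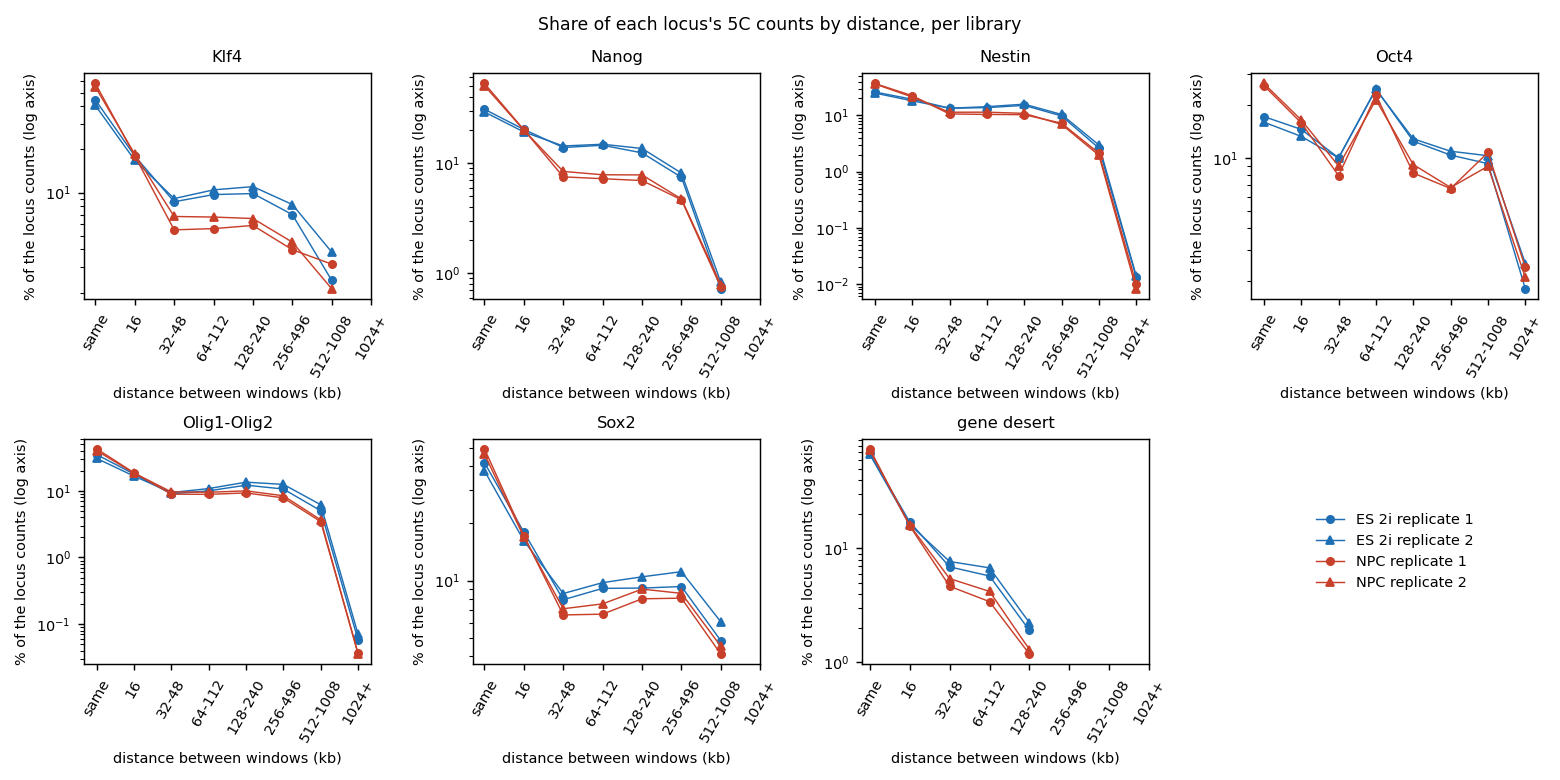
Share of each locus's counts (%, log axis) by distance between windows (kb; same means inside 1 window), 1 line per library. The NPC libraries lie above the ES 2i libraries inside 1 window at all 7 loci and below them at 64 to 112 kb at all 7.

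The size of the mid-range falls depended on neighbouring fragments. With their primer pairs left out, an alternative added after seeing the data, 29 of the 50 were called, 13 higher and 16 lower. Of the 34 calls, 22 were still called in the same direction. Among the calls lost, only that of Nestin at 32 to 48 kb changed sign (0.010). Contacts inside 1 window were still higher in NPC at all 7 loci, now all called, and by 0.87 on the log2 scale at Nanog. Of these 7 rises only that at Oct4 was smaller than before (0.60 against 0.66). Contacts at 16 kb were called higher at Klf4 (0.30), Nanog (0.31), Nestin (0.33) and Olig1-Olig2 (0.21). So were those at 32 to 48 kb at Olig1-Olig2 (0.22) and at 512 to 1008 kb at Nanog (0.57). The mid-range falls shrank, at Nanog 64 to 112 kb to -0.39, at Klf4 256 to 496 kb to -0.41 and at Oct4 256 to 496 kb to -0.44, each still called. With pairs inside 1 window left out as well, 20 of 43 were called, 6 higher and 14 lower. Under that setting the calls at 128 kb and more held at Klf4 to 496 kb, at Oct4 to 496 kb, at Nestin to 496 kb and at Olig1-Olig2 throughout. At Nanog the share at 512 to 1008 kb then rose (0.69 on the log2 scale). Why the neighbouring-fragment share differed was not tested.

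**Figure D2:**
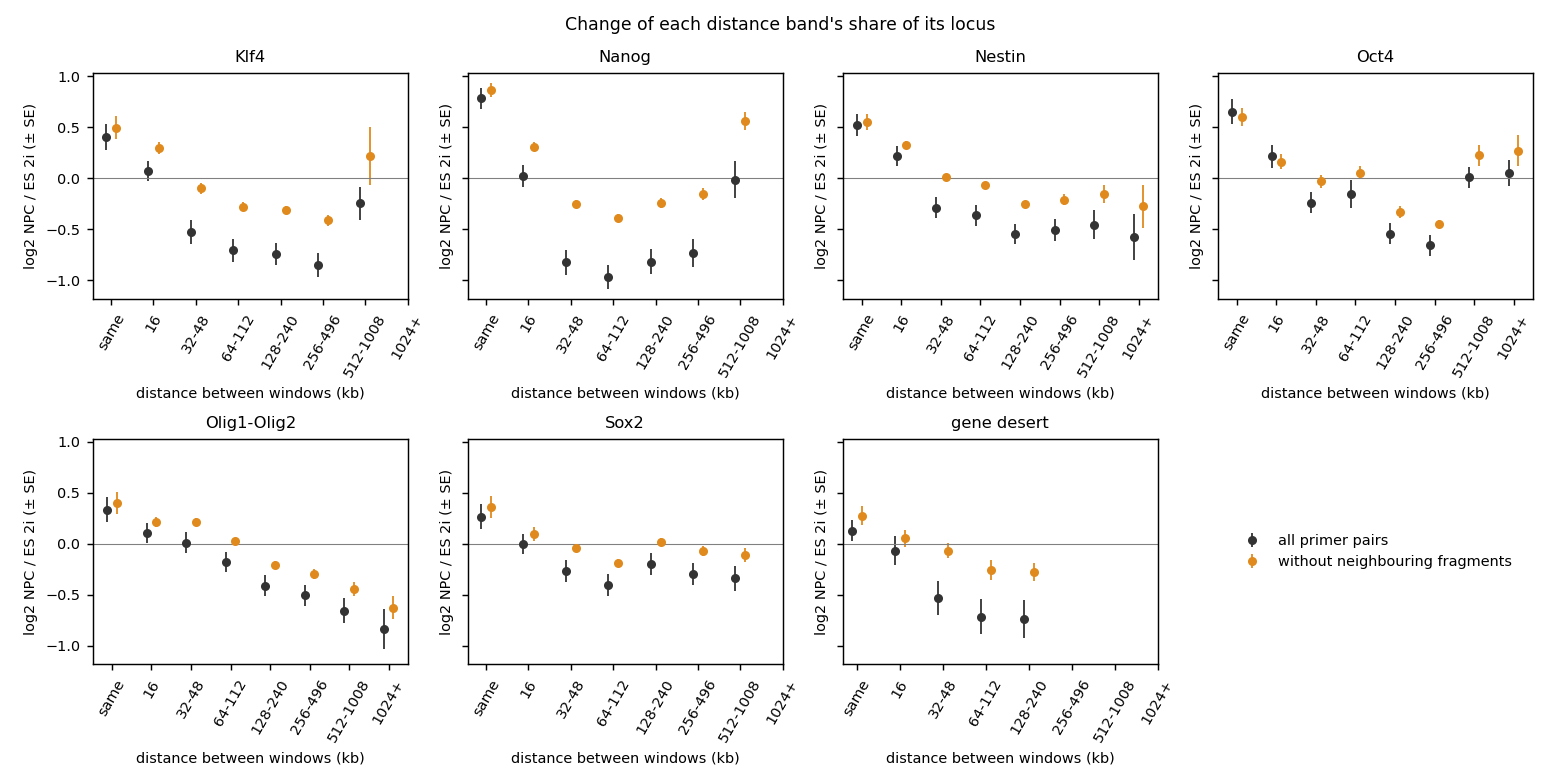
Log2 change (NPC over ES 2i, ± SE) of each distance band's share of its locus, with all primer pairs and without those on neighbouring fragments. The points without neighbouring fragments lie closer to 0 at 64 to 496 kb and stay above 0 inside 1 window at all 7 loci. At other distances some lie further above 0, as Olig1-Olig2 at 32 to 48 kb (0.22).

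Relative to the distance trend of their locus, individual window pairs were called in both directions. For each library and locus a smooth trend of count on distance gave an expected count, and window pairs were tested relative to it. The trend was fitted to these same pairs and centres their changes, so a near balance of directions is largely set by it. A level given as observed over expected is the count divided by that trend. The trend follows the typical pair on a log scale and lies below the mean, so levels above 1 are common. Of 15190 pairs of different windows, 2660 passed (17.5%), 1372 higher in NPC (9.03%) and 1288 lower (8.48%). At an unadjusted p below 0.05 there were 4669. The groups' libraries did not overlap at 56.7% of the pairs. The median called change was 0.99 on the log2 scale in absolute size, and 80% of the calls lay between 0.66 and 1.70. Without ES 2i replicate 1, 1270 pairs were called. Without neighbouring fragments 2665 were called, 2602 of them the same pairs in the same direction.

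Sox2 had the highest share of called pairs, 29.6% of 1888, with 304 higher and 255 lower in NPC. Nanog followed with 22.7% of 944 (97 higher, 117 lower), Olig1-Olig2 with 19.5% of 2391 (279 higher, 187 lower) and Klf4 with 18.2% of 1811 (174 higher, 155 lower). Nestin and Oct4 were both at 13.5%, with 144 higher and 133 lower at Nestin and 374 higher and 441 lower at Oct4. None of the 62 gene desert pairs was called by edgeR or by DESeq2, and 3 had an unadjusted p below 0.05 in edgeR. In 6 of the alternative settings at least 1 gene desert pair was called, and in 12 none was. The shares of called pairs depend on depth: the median count per pair was 262 at Sox2 and 103 at Oct4, whose longest distances hold few counts, but 805 in the gene desert. Differences in share between loci were not tested.

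By distance, 29.3% of pairs were called at 16 kb, 28.7% at 32 to 48 kb, 30.1% at 64 to 112 kb, 23.4% at 128 to 240 kb, 19.3% at 256 to 496 kb, 9.15% at 512 to 1008 kb and 3.97% beyond. The median count fell alongside, from 4110 at 16 kb to 37 beyond 1 Mb, so the decline in calls cannot be told apart from the decline in depth. Both directions were present at every distance. Adjacent windows gave 84 higher and 35 lower calls, of which Oct4 gave 34 and 7, and pairs 32 to 48 kb apart gave 89 higher and 136 lower. At 256 to 496 kb 36.7% of the 616 Sox2 pairs were called. The share was 22.2% at Olig1-Olig2, 18.6% at Oct4, 15.0% at Nanog, 12.1% at Nestin and 9.73% at Klf4. Median counts per pair there also differed, from 98 at Nanog and 125.5 at Klf4 to 209 at Sox2 and 221.5 at Olig1-Olig2. This comparison between loci is a description.

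**Figure D3:**
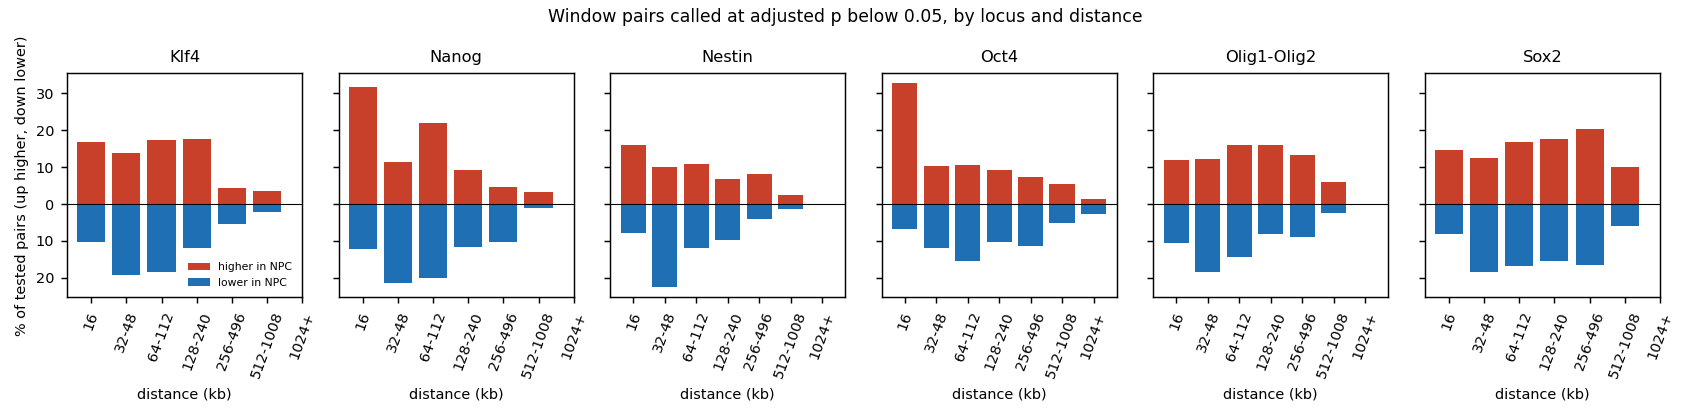
Percent of tested window pairs called higher (up) or lower (down) in NPC, by locus and distance between windows (kb). Sox2 keeps 20.3% higher and 16.4% lower at 256 to 496 kb, where Olig1-Olig2 has 13.4% and 8.81% and Klf4 4.44% and 5.29%.

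Many called pairs adjoined each other. Of the 2660 called pairs, 84.1% touched another called pair of the same direction and 6.58% touched one of the opposite direction. Pairs that touch share windows and sometimes primers, so neither share is a test. Connected by direction they made 814 groups at 6 loci, of which 100 held at least 5 pairs. The patches described next are the largest connected group per locus and direction, chosen after their values were seen, so they carry no test.

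**Figure D4:**
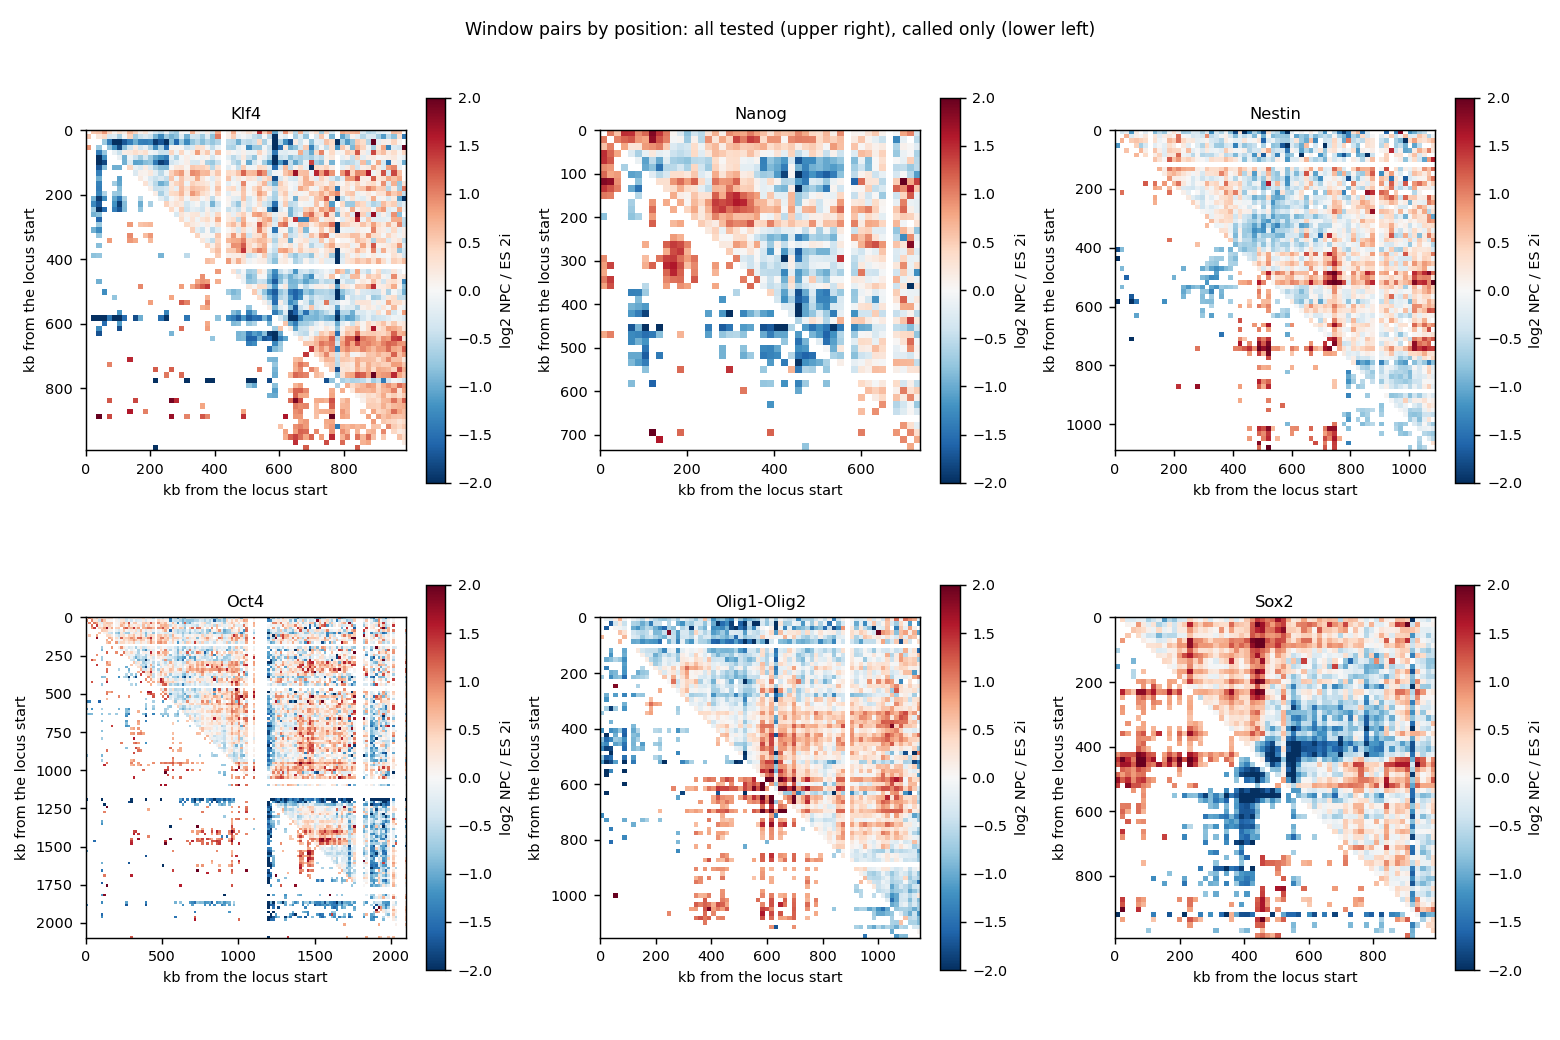
Log2 change (NPC over ES 2i) of window pairs at 6 loci, both axes in kb from the locus start, with all tested pairs in the upper right and called pairs alone in the lower left. At Sox2 143 connected pairs rose and 156 fell, in 2 neighbouring patches.

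At Sox2, 143 of the 304 rising pairs and 156 of the 255 falling pairs lay in 2 large neighbouring patches. In the rising one, the 143 connected window pairs joined chr3:34108880-34492879 to chr3:34348880-34716879. Their summed counts were 49996 and 69304 in ES 2i and 118610 and 145336 in NPC, or 1.38 and 1.38 times the expected count against 2.81 and 2.84. In the falling one, 156 pairs joined chr3:34316880-34620879 to chr3:34540880-34940879, with 121715 and 147486 counts in ES 2i and 53905 and 60006 in NPC. Relative to expectation these were 2.55 and 2.28 times in ES 2i and 0.955 and 0.875 times in NPC. Contacts that stood above the trend in ES 2i were thus at the trend in NPC, whereas the patch nearer the locus start rose further above it. Shared CTCF was present in 2 of 24 windows on the left side and 2 of 23 on the right side of the rising one, and in 2 of 19 and 1 of 25 in the falling one, where the whole locus had 5 of 63. A window with any shared region was counted as shared. Here and below, windows with CTCF listed in ES 2i alone are therefore those without a shared region. CTCF listed in ES 2i alone was present in 5 of 24 and 9 of 23 windows of the rising one. In the falling one it was present in 8 of 19 and 6 of 25, where the whole locus had 12 of 63.

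The example pairs at Sox2, taken as the most counted called pair of each direction, were members of these patches. The pair chr3:34556880-34572879 with chr3:34636880-34652879, 80 kb apart, had 5885 and 7114 counts in ES 2i and 1958 and 1986 in NPC. That was 13.5 and 12.2 times the expected count in ES 2i and 3.83 and 3.12 times in NPC (log2 change -1.89 ± 0.19, edgeR adjusted p = 1.38e-05). The rising pair, chr3:34332880-34348879 with chr3:34380880-34396879, had 2.39 and 2.35 times against 4.17 and 3.99 times (0.78 ± 0.16, edgeR adjusted p = 0.00346). The first window of each pair held CTCF listed in ES 2i alone. Window chr3:34652880-34668879 had most falling pairs, 34 of 61 with 1 rising, and chr3:34188880-34204879 had most rising pairs together with another window, 32 of 61. All 3 primers of the former and all 6 of the latter moved in the direction of their window.

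The largest patches at Olig1-Olig2 held 33 of the 279 rising and 30 of the 187 falling pairs, and 8.80% of the called pairs touched one of the opposite direction. The largest rising patch, 33 pairs, joined chr16:91110613-91286612 to chr16:91254613-91414612 with 35614 and 43147 counts in ES 2i and 130274 and 122814 in NPC. Relative to expectation that was 1.62 and 1.56 times in ES 2i and 5.20 and 4.13 times in NPC, the highest NPC level among the 6 rising patches. The example rising pair was a member of it: chr16:91222613-91238612 with chr16:91302613-91318612, joined 2 windows with shared CTCF, 80 kb apart. It had 1376 and 1826 counts in ES 2i and 11087 and 8051 in NPC (log2 change 2.56 ± 0.22, edgeR adjusted p = 3.82e-06). The left window of that pair also had most rising pairs of the locus, 41 of 69 with none falling, and 4 of its 5 primers were higher in both NPC libraries. CTCF listed in ES 2i alone was in 1 of the 11 left and 0 of the 10 right windows of the rising patch. The largest falling patch, 30 pairs 320 to 512 kb apart, joined the first 6 windows of the locus to chr16:91014613-91142612. Its counts were 5424 and 7136 in ES 2i and 2421 and 2416 in NPC, and 5 of its 6 left windows held CTCF listed in ES 2i alone, against 16 of 72 in the locus. Of its 8 right windows 1 was of that kind and 4 held shared CTCF, against 17 of 72 in the locus. The example falling pair, chr16:91542613-91558612 with chr16:91606613-91622612, changed by -0.55 ± 0.18 (edgeR adjusted p = 0.0394). It held its call in 9 of 18 alternatives, and ranged from -0.69 to -0.43 with 1 library left out. Window chr16:90694613-90710612 had most falling pairs, 21 of 66 with 1 rising.

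The largest patches at Nanog held 32 of the 97 rising and 20 of the 117 falling pairs. The rising patch, 32 pairs 64 to 208 kb apart between chr6:122317360-122413359 and chr6:122429360-122557359, stood at 0.978 and 1.02 times the expected count in ES 2i and 2.17 and 2.13 times in NPC. Its summed counts were 11081 and 15400 against 11930 and 14479, so the groups overlapped in raw counts, while the locus itself had fewer mid-range counts in NPC. The falling patch, 20 pairs 320 to 464 kb apart, went from 6.06 and 4.80 times the expected count to 2.27 and 2.17 times. It joined chr6:122253360-122333359 to chr6:122637360-122749359, where 4 of the 7 right windows held CTCF listed in ES 2i alone and the other 3 shared CTCF. Over the whole locus, 16 of 46 windows were of the former kind and 18 of the latter. Of the 5 left windows of the falling patch, 1 was of each kind. In the rising patch 2 of 6 left and 2 of 8 right windows were of the former kind. The example falling pair, chr6:122605360-122621359 with chr6:122653360-122669359, had 10901 and 12548 counts in ES 2i and 3104 and 3352 in NPC (log2 change -1.04 ± 0.17, edgeR adjusted p = 0.000759). The window with most falling pairs, chr6:122637360-122653359 (22 of 43, with another window), rested on 1 primer, so its stripe is not independent of that primer. The example rising pair, at the start of the locus, went from 2.01 and 1.68 to 5.66 and 4.63 times the expected count (1.48 ± 0.18, edgeR adjusted p = 5.06e-05). Its first window, chr6:122189360-122205359, had most rising pairs, 15 of 43 with 1 falling.

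At Klf4 a stripe fell. Window chr4:55475979-55491978, with CTCF listed in ES 2i alone, had 34 of 60 pairs lower and none higher. Its counts with windows at least 96 kb away were 19778 and 22539 in ES 2i and 6895 and 8609 in NPC, or 2.30 and 1.84 times the expected count against 1.11 and 1.08 times. All 3 of its primers were lower in both NPC libraries, but 1 of them held on average 71.1% of the window's counts at that range. The largest falling patch, 30 pairs, lay elsewhere, along 3 windows at chr4:54915979-54963978, all of them with CTCF listed in ES 2i alone, as in 13 of 62 windows of the locus (2.32 and 1.97 times in ES 2i, 0.939 and 0.812 times in NPC). Of its 18 right windows 4 were of that kind. The largest rising patch, 35 pairs 128 to 336 kb apart between chr4:55507979-55603978 and chr4:55683979-55875978, went from 0.901 and 0.929 times to 1.86 and 1.80 times. None of its 12 right windows held a listed CTCF region, which was also so for 43 of the 62 windows of the locus. Window chr4:55779979-55795978 had most rising pairs, 19 of 60 with none falling. The example pairs at this locus changed by 0.67 ± 0.17 (edgeR adjusted p = 0.0125) and -0.55 ± 0.17 (edgeR adjusted p = 0.0349), and each lost its call without at least 1 library.

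At Oct4 the calls were spread over the longest locus. The largest rising patch, 50 pairs, joined chr17:35806392-35918391 to chr17:35886392-36110391 and went from 1.36 and 1.41 to 3.07 and 2.85 times the expected count. The largest falling patch, 47 pairs, linked 22 windows to chr17:36286392-36350391, with 43580 and 50352 counts in ES 2i and 12001 and 13324 in NPC. CTCF listed in ES 2i alone was in 2 of 7 left and 5 of 14 right windows of the rising patch. In the falling one it was in 6 of 22 and 2 of 4, against 24 of 131 in the locus. A stripe at chr17:35614392-35630391 had 65 of 101 pairs lower and none higher, the most of any window, with 1.23 and 0.959 times the expected count in ES 2i and 0.361 and 0.371 times in NPC. That window held shared CTCF. It held 1 primer, so a change in that primer's capture and a change in contacts of its fragment cannot be told apart. The window with most rising pairs, chr17:35374392-35390391 with shared CTCF, had 46 of 112 higher and 2 lower, and 5 of its 8 primers were higher and 1 lower in both NPC libraries. The example rising pair, chr17:34830392-34846391 with chr17:34910392-34926391, had 2715 and 3779 counts in ES 2i and 6661 and 7920 in NPC (log2 change 1.64 ± 0.19, edgeR adjusted p = 4.27e-05). The example falling pair, chr17:35326392-35342391 with chr17:35390392-35406391, changed by -0.75 ± 0.21 (edgeR adjusted p = 0.0199) and lost its call without ES 2i replicate 1 or NPC replicate 2.

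At Nestin the rising stripe was the clearer one. Window chr3:88021088-88037087, with CTCF listed in ES 2i alone, had 29 of 65 pairs higher and none lower. It went from 2.18 and 2.15 to 4.28 and 3.76 times the expected count, and 6 of its 7 primers were higher in both NPC libraries. The largest rising patch, 26 pairs, joined 11 windows at chr3:87685088-87861087 (7 with shared CTCF, against 33 of 68 in the locus) to chr3:87989088-88069087, with 11563 and 13279 counts in ES 2i and 20457 and 17251 in NPC. The largest falling patch, also 26 pairs, lay between chr3:87573088-87701087 and chr3:87685088-87813087 and went from 1.48 and 1.61 to 0.804 and 1.04 times the expected count. CTCF listed in ES 2i alone was in 2 of 11 left and 2 of 5 right windows of the rising patch. In the falling one it was in 2 of 8 on each side, against 15 of 68 in the locus. The window with most falling pairs, chr3:87861088-87877087, had 15 of 65 lower and 3 higher, and its total did not pass. The example pairs changed by 0.81 ± 0.20 (edgeR adjusted p = 0.0125) and -0.72 ± 0.18 (edgeR adjusted p = 0.0107), and both lost their calls without at least 1 library.

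Window totals describe whole windows without choosing pairs. Counts of each window with windows at least 96 kb away were summed and compared with their summed expectation. Of 429 windows, 158 passed (36.8%), 100 higher (23.3%) and 58 lower (13.5%). That split depended on the expectation: with the arithmetic mean count at each distance in place of the trend, 44 were higher and 97 lower. Under both, 44 were higher and 55 lower. Sox2 had 13 higher and 11 lower of 62 windows under both, Nanog 8 and 10 of 44, Klf4 8 and 11 of 61, and Olig1-Olig2 6 and 8 of 70. Oct4 had 4 and 10 of 114 and Nestin 5 and 5 of 66, and none of the 12 gene desert windows was called by edgeR, also at an unadjusted p below 0.05 (0 windows).

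CTCF content was taken from 1 deposited peak list per state. The lists held 56138 peaks in ES 2i and 28860 in NPC, of which 400 and 196 lay in the loci. Merged, they gave 188 shared regions, 212 found in ES 2i alone and 6 found in NPC alone. Regions found in ES 2i alone had a median fold enrichment of 11.8 in the ES 2i list, against 24.7 for shared regions, so they were the weaker peaks in ES 2i. Absence from a list means that no peak passed the authors' threshold, and each list comes from 1 library. The share of ES 2i peaks absent from the NPC list ran from 42.5% at Nestin to 76.0% at Klf4, and was 100% (3 of 3) in the gene desert. Each window was given 1 class, with shared regions taking precedence, then those of ES 2i alone. Of 454 windows, 147 held a shared region, and these could also hold regions of ES 2i alone. A further 99 held regions of ES 2i alone and no shared region, 3 held regions of NPC alone and 205 held none.

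Pairs of windows that both held CTCF listed in ES 2i alone fell more often than they rose. Of 718 such pairs, 111 were lower (15.5%) and 45 higher (6.27%), where all pairs gave 8.48% and 9.03%. Their median log2 change was -0.17, against 0.05 over all pairs. Windows of ES 2i alone paired with windows without CTCF gave 317 lower and 196 higher of 2770, and paired with shared windows 255 lower and 203 higher of 2407. Pairs without such a window leaned the other way. All pairs of a locus are measured against the same fitted trend, so falls in some classes tend to raise the rest. The leans are thus not separate observations. Pairs without any CTCF gave 311 higher and 181 lower of 3113, shared with none 341 and 234 of 3515, and shared with shared 237 and 187 of 2427. Pairs with a window of NPC alone gave 39 higher and 3 lower of 240, but these come from 3 windows. The lean of the pairs within ES 2i alone was present both under 96 kb (21 higher, 38 lower of 120) and beyond (24 higher, 73 lower of 598).

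Summed by locus, the classes did not all move together. Of 41 combinations of locus and class, 21 passed (51.2%), 16 higher (39%) and 5 lower (12.2%), and the libraries did not overlap in 75.6%. With the arithmetic mean as expectation 10 were higher and 12 lower, and without neighbouring fragments 13 were higher and 8 lower. The text below keeps to the 14 that passed in the same direction under both, 9 higher and 5 lower. Log2 changes are given first against the trend and then against the mean.

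Contacts among windows with CTCF in ES 2i alone were lower at Nanog and Sox2 and higher at Nestin. At Nanog their level over the mean expectation was 1.51 and 1.45 in ES 2i and 1.08 and 1.04 in NPC (log2 changes -0.52 ± 0.07 and -0.48 ± 0.05, edgeR adjusted p = 0.000177 for each). Of the 120 such pairs 18 were lower and 6 higher, the median pair changed by 0.01 on the log2 scale, and 1 pair held 18.7% of the counts. At Sox2 it was 1.80 and 1.72 against 1.37 and 1.35 (-0.29 and -0.37), a call lost without ES 2i replicate 1 (-0.17, edgeR adjusted p = 0.0887). At Nestin the level went the opposite way, from 0.715 and 0.781 to 1.15 and 1.09 (0.71 ± 0.08 and 0.58 ± 0.08), although 1 window pair held 32.6% of those counts. Klf4 had 25 lower and 5 higher of 78 such pairs, but the sum did not pass against the trend (-0.22, edgeR adjusted p = 0.0873) and passed against the mean (-0.42). The difference between loci was not tested.

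Contacts between shared CTCF windows rose at Olig1-Olig2 and Sox2. At Olig1-Olig2 their level over the mean expectation was 1.30 and 1.34 in ES 2i and 1.78 and 1.59 in NPC (0.59 ± 0.07 and 0.35 ± 0.05, edgeR adjusted p = 5.55e-05 and 0.000872). There 44 of 120 such pairs were higher and 3 lower. At Sox2, with 10 such pairs, the level rose from 0.576 and 0.771 to 0.990 and 0.956 (0.68 ± 0.15 and 0.53 ± 0.19), and 6 pairs were higher and none lower. At Klf4, with 15 pairs, the class fell (-0.40 and -0.62), and this call was lost without any 1 of 3 libraries (both ES 2i libraries and NPC replicate 2). Among pairs at least 96 kb apart the change was 0.09, and the call held in 11 of 17 alternatives. Nanog (136 pairs), Nestin (510) and Oct4 (1636) held most shared pairs and had no call that held under both expectations. The difference between loci was not tested here either.

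Mixed classes completed the list. Shared windows with windows lacking CTCF were higher at Olig1-Olig2 (0.42 and 0.16) and Nanog (0.33 and 0.36), the latter at -0.03 with stricter peaks (-log10 q of at least 20). Shared windows with those of ES 2i alone were lower at Klf4 (-0.38 and -0.53) and Nanog (-0.22 and -0.18) and higher at Nestin (0.21 and 0.15). The Klf4 and Nanog calls were lost without ES 2i replicate 1 (-0.26 and -0.15, edgeR adjusted p = 0.0566 for each), and the Nestin call without ES 2i replicate 2 (0.18) or NPC replicate 1 (0.15). The Nanog class was also at 0.02 with stricter peaks, and its authors' score, described below, was 0.468 higher in NPC with no overlap. Windows of ES 2i alone with none were higher at Nanog (0.33 and 0.32), where single called pairs were nearly even, 19 higher and 23 lower of 175. This class turned to -0.02 with 8-kb windows, -0.09 with stricter peaks and -0.15 among pairs at least 96 kb apart, and its score was 0.622 lower in NPC with no overlap. At Klf4, pairs without any CTCF were higher, from 0.782 and 0.814 to 0.920 and 0.976 times the mean expectation (0.42 ± 0.06 and 0.25 ± 0.04), with 121 of 847 pairs higher and 18 lower. At Sox2, pairs with the 1 window of NPC alone rose from 0.808 and 0.893 to 1.23 and 1.09 (0.55 ± 0.09 and 0.45 ± 0.09), and 25 of 61 were higher and none lower. Oct4 had no class that held under both expectations, and the gene desert had none called by either.

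**Figure D5:**
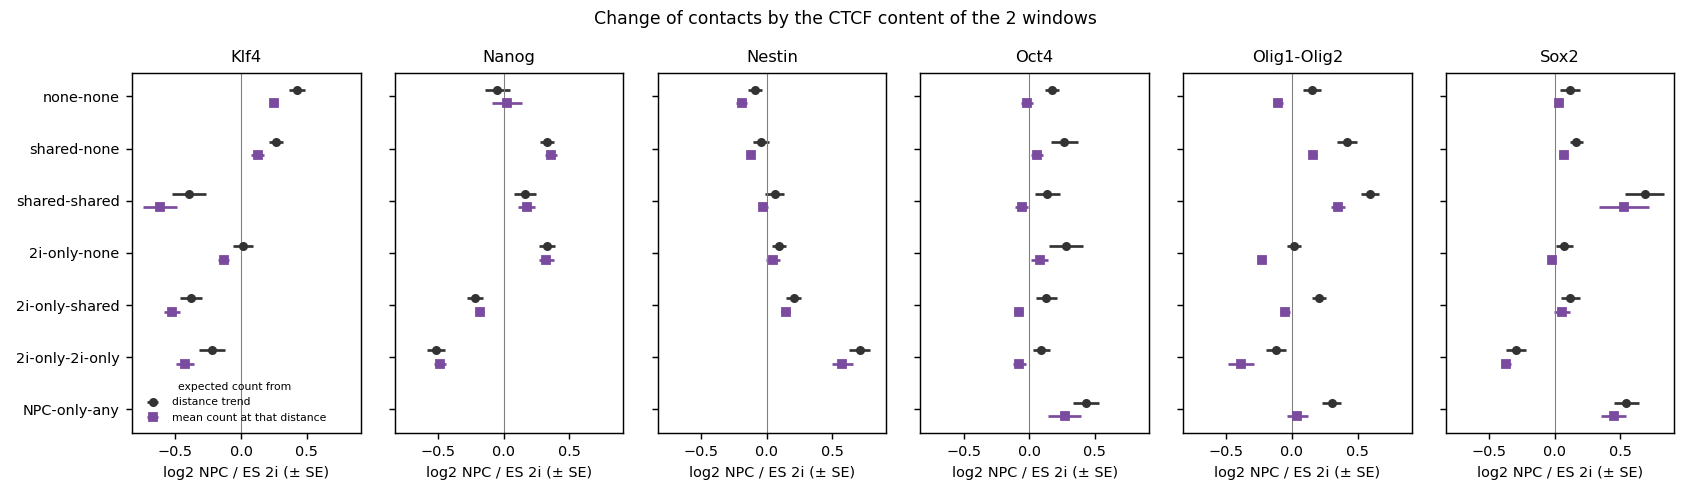
Log2 change (NPC over ES 2i, ± SE) of contacts summed by locus and by the CTCF content of both windows, with the expected count from the distance trend or from the mean at that distance. Pairs within ES 2i alone lie below 0 under both at Klf4, Nanog and Sox2 and above 0 at Nestin.

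The same lean appeared in window totals, which sum the same counts and so are not a separate observation. Of 97 windows with CTCF in ES 2i alone, 23 were lower and 9 higher under both expectations. Windows with shared CTCF gave 13 and 13 of 136, and windows without CTCF 19 lower and 21 higher of 193. Lower totals were thus found in 23.7% of the windows with CTCF in ES 2i alone, 9.56% of those with shared CTCF and 9.84% of those without. The median log2 change against the trend was 0.005 for windows with CTCF in ES 2i alone, so the typical such window did not fall. It was 0.16 for windows with shared CTCF and 0.11 for those without. Neighbouring windows share contacts, so these shares are a description without a test.

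The authors' interaction scores, deposited per pair of 4-kb bins, moved with most of the called pairs. From the values, the score was -10 times the log2 of the deposited p-value, within 0.1 for 100% of bin pairs in each of the 4 libraries. It is therefore larger where a contact exceeded its local expectation with more certainty. Averaged within window pairs, it was higher in both NPC libraries than in both ES 2i libraries for 70.3% of the 1333 scored rising pairs, and lower for 5.93%. Among 1237 scored falling pairs it was lower for 75.3% and higher for 4.61%. Among the 10349 pairs not called it was higher for 27.4% and lower for 27.2%. Scores and counts come from the same reads, so this compares 2 normalizations and adds no new libraries.

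Of the 14 classes that passed under both expectations, 10 had scores that moved in the same direction with no overlap between the groups. The other 4 were all at Nanog, where 2 overlapped and 2 went the opposite way. Pairs within ES 2i alone averaged 19.9 in ES 2i and 10.7 in NPC at Klf4, and 15.4 and 11.2 at Sox2. At Nanog they averaged 12.9 and 12.5 with overlapping libraries, so the fall in counts there was not seen in the scores. Shared pairs averaged 11.4 in ES 2i and 16.1 in NPC at Olig1-Olig2, and 14.5 and 32.9 at Sox2. At Nestin, pairs within ES 2i alone averaged 10.5 and 14.1.

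The authors' deposited classification of bin pairs placed 712 in an NPC class and 451 in an ES 2i class. The NPC class was largest at Sox2 (225), Olig1-Olig2 (185) and Nestin (104), and the ES 2i class at Klf4 (132), Oct4 (112) and Sox2 (106). Their median distances were 240 kb and 304 kb. A window with CTCF in ES 2i alone was present in 57.0% of the ES 2i class and 37.8% of the NPC class, against 38.2% of all 192027 scored bin pairs. Both windows held shared CTCF in 10.4% of the ES 2i class and 19.1% of the NPC class, against 15.7% of all. Of the NPC class 69.5% fell in window pairs called higher here, and of the ES 2i class 65.4% fell in pairs called lower. Over all scored bin pairs 10.3% fell in pairs called higher and 9.59% in pairs called lower. The classes were made from the same libraries, so these shares are a description.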

How the data were processed

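Per the labels' protocols, 5C libraries were made from HindIII 3C templates with an alternating primer design. The submitters' processing notes name Bowtie, MACS2 and the mm9 build, without versions, and no source used here states read filters. The authors deposited raw read counts per primer pair, listing only pairs with a count, interaction scores and p-values per bin pair, and CTCF peaks with a fold enrichment ratio and a −log10 q. Other deposited columns give positions, and 27 columns of other samples were not used.

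Each primer pair's count was added to its pair of 16-kb windows, and the sums were fitted with edgeR 4.0.16 (R 4.3.3) in 1 model of 6 untreated libraries (NPC, ES 2i and ES serum share the spread), with filterByExpr. A loess of log(count + 0.5) on distance (span 0.5), per library and locus, was the offset for window pairs, CTCF classes and window totals. Bands used the locus total. Pairs inside 1 window entered the bands only. Quasi-likelihood p-values were Benjamini-Hochberg adjusted over each table, at 0.05. DESeq2 1.42.0 was an alternative. A CTCF region was shared if peaks of both lists overlapped by at least 1 bp. A window was classed as shared if it held a shared region, otherwise as ES 2i alone, NPC alone or none, in that order. With 2 libraries against 2, an exact two-sided permutation test cannot go below 0.333.

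For each locus and direction the text names the window with most called pairs and 1 example pair: called, at least 3 windows apart, non-overlapping libraries, no primer pair over 50% of its counts, highest mean count. Connected patches were chosen after their values were seen. The members and lists were chosen with earlier results of these data known. On simulated data, edgeR recovered 97% of window pairs changed by 2 and 34% of those changed by 1 on the log2 scale among 15190 pairs, with 5.76% false calls. Those counts were drawn independently with 1 common spread and known offsets, and 100 pairs of each size were changed. Real pairs share windows and primers and have fitted offsets, so that false-call share does not carry over to the calls above. Replicates differed by more than counting noise (chi-square per degree of freedom 21.0 in ES 2i and 23.3 in NPC), so none was a duplicate. Precision is limited by the spread between libraries (biological coefficient of variation 0.201 for window pairs).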

Additional observations from a re-analysis of the deposited data

How the results depend on the processing

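Under the alternatives run, no window pair, band, class or window that was called under both settings turned direction; pairs at 8 and 32 kb were not matched. Leaving out 1 library at a time, window pairs called ranged from 1270 (without ES 2i replicate 1) to 2362, bands from 19 (without ES 2i replicate 2) to 36, classes from 17 to 22 and windows from 111 to 173. Without NPC replicate 1, 22 bands were called. All 6 such fits kept 18 of 34 bands, 13 of 21 classes, 6 of 12 example pairs and all 11 called named windows. With 32-kb windows 1253 pairs were called. Without neighbouring fragments and pairs inside 1 window 20 bands were called. Labels give no shared culture behind a replicate number, and same-numbered NPC and ES 2i libraries deviated together by a correlation of 0.089 over window pairs. With the replicate block, 3289 pairs, 38 bands, 25 classes and 223 windows were called. DESeq2 called 2940 pairs. Using the library total in place of the locus total gave 11 bands higher and 22 lower. Windows against the locus total were 50 higher and 98 lower. Classes kept by all 17 alternatives were Klf4 without CTCF, Nestin within ES 2i alone, Olig1-Olig2 shared with none and shared with shared, and Sox2 with NPC alone. Depth limits the longest distances, where the median count per pair was 37.

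Some bands and classes changed sign; the cause was not tested. With 8-kb windows, Nanog ES 2i alone with none was -0.018, Nanog without CTCF 0.40 and Oct4 within ES 2i alone -0.33. With the library total, the gene desert at 16 kb was 0.58 and at 32 to 48 kb 0.13, Nanog at 16 kb -0.44, Oct4 at 512 to 1008 kb -0.28, and Sox2 0.30 at 16 kb, 0.034 at 32 to 48 kb and 0.0015 at 256 to 496 kb. Without pairs inside 1 window, the gene desert at 16 kb was 0.24 and Nanog at 512 to 1008 kb 0.52. With peaks of −log10 q of at least 20, Nanog ES 2i alone with none was -0.087, with shared 0.017, and shared with none -0.032. At 6 or more windows apart, Klf4 shared with shared was 0.094, Nanog ES 2i alone with none -0.15 and Oct4 within ES 2i alone -0.24. Against the mean, Klf4 ES 2i alone with none was -0.13, Oct4 without CTCF -0.014, and Olig1-Olig2 -0.23 for ES 2i alone with none, -0.052 with shared and -0.11 without CTCF. Without neighbouring fragments, Nanog at 512 to 1008 kb was 0.57 and Nestin at 32 to 48 kb 0.0100. Without pairs inside 1 window as well, these were 0.69 and 0.051, the gene desert at 32 to 48 kb was 0.014 and Oct4 0.0014.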
